A study of Drosophila melanogaster with 2 samples.

Results

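The mitochondrial ribosomal protein genes of Drosophila melanogaster were taken as the protein-coding genes whose Ensembl BDGP6 symbol begins with mRpL or mRpS. Of 13945 protein-coding genes on the 6 main chromosomes and arms, 73 met this rule, 47 for the large subunit (mRpL) and 26 for the small subunit (mRpS). Their promoters were examined for binding of the zinc-finger protein disco-r, measured by chromatin immunoprecipitation with sequencing (ChIP-seq). The fly line, labelled disco-r-GFP, expresses a disco-r-eGFP fusion that was recovered with an antibody against GFP. Both samples form 1 group of whole embryos aged 0 to 24 h, male and female pooled, with chromatin sonicated to 200 to 800 bp, and the replicate numbers are 2 and 3. In 1 label note the fused gene is disco, the paralog, and the promoter driving the transgene is not given in the sources used here. Whole embryos mix all cell types, so the cells that carry a signal were not resolved, and there is no second genotype, stage or treatment to compare. No control library was analysed here, and the sequencing depth is unknown.

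Mitochondrial ribosomes translate the few messenger RNAs made from mitochondrial DNA, which encode core subunits of the respiratory chain and the ATP synthase. Their proteins are encoded in the nucleus, made in the cytosol and imported into mitochondria, where the small subunit reads the messenger RNA and the large subunit joins the amino acids. The tagged protein disco-r and its paralog disco are known instead for patterning the embryonic head and the appendages.

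The deposited lists give each candidate region a summit and a signal, and the authors' IDR list (irreproducible discovery rate, a threshold on how alike replicates rank regions) holds 2334 of them. A gene was counted as having a promoter peak when an IDR summit lay within 500 bp of one of its own transcription start sites. Promoters of 15 mitochondrial ribosomal genes met this, 9 of the large and 6 of the small subunit. Stretches of promoter DNA between divergent start sites are shown for 3 of them, all holding the summit: mRpS10 and mRpS23 because their candidates were among the 20 strongest in the genome, and mRpS7 because it shares its promoter with the mitotic kinase gene Cdk1. Each runs 5′ to 3′ on the strand of the ribosomal gene in dm6 (RefSeq Release 6 sequence). Capitals mark matches to any of 10 motifs searched on both strands. The stretches of mRpS10 and mRpS23 hold none of the 10, and that of mRpS7 holds the TATA box word TATAAA, read on the opposite strand.
mRpS10, chr3R:15229409-15229645, plus strand: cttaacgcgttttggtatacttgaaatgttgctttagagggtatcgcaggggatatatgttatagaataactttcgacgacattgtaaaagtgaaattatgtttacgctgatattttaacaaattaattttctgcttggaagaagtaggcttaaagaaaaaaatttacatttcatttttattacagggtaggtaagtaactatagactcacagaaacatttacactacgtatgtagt
mRpS23, chr2L:13835312-13835563, minus strand: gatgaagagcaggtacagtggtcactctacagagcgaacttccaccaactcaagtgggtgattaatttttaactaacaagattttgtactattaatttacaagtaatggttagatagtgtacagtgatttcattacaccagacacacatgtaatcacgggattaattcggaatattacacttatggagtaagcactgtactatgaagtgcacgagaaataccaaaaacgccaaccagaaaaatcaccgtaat
mRpS7, chr2L:10386337-10386617, plus strand: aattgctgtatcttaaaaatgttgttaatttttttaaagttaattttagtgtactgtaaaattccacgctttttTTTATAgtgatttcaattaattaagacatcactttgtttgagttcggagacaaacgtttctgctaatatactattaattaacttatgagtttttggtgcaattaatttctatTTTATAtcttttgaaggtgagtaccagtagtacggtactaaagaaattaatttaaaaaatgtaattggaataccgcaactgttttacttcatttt

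A second set of stretches shows the word that, of the 10, stood apart most in frequency between mitochondrial ribosomal promoters and all promoters, the E-box CAGCTG, which reads the same on both strands. Each is the word, in capitals, with 12 bases on either side, in dm6 and on the gene's own strand. The first 5 belong to genes with an IDR peak at the promoter.
mRpL11, chr3R:14511821-14511850, plus strand: cagcaataccatCAGCTGttgctgcttctt
mRpL23, chr3L:2373715-2373744, minus strand: gtggttgacaatCAGCTGtttaaaacaagt
mRpL24, chr2L:4945324-4945353, minus strand: ttcagttctcaaCAGCTGattgcaagccgc
mRpL47, chr3R:9515873-9515902, minus strand: ttgttattgcttCAGCTGttttgttcggtc
mRpL48, chr2L:1710471-1710500, plus strand: gctgcacgccatCAGCTGgtgatataacct
The other 6 belong to genes with no promoter candidate in the pooled list.
mRpL2, chr3L:11120845-11120874, plus strand: aacgccgcgtaaCAGCTGttttcagccgca
mRpL19, chr3R:8674105-8674134, plus strand: tatcggtgctgcCAGCTGattatagtgcgg
mRpL28, chr2L:4973979-4974008, plus strand: ttcacatacgaaCAGCTGttttttccaaac
mRpL33, chrX:4322207-4322236, minus strand: gataggcgcagtCAGCTGttcttcgttcct
mRpL40, chr3R:11407929-11407958, plus strand: cagcaacaaaaaCAGCTGttcgtacattac
mRpL45, chr3R:22618471-22618500, plus strand: aatcacgtttgcCAGCTGgtcgcgttagtg
These 11 examples were picked among the members with the word, so they do not show how often it lies near the start site. In each, the word shown began within 50 bp of the start site, upstream at mRpL11, mRpL23 and mRpL45 and downstream at the others. Farther out, at -72 and -60 bp, were the words of mRpL14 and mRpS9, also without a candidate and not shown here.

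The list pooled from both replicates holds 29347 candidates and is labelled as peaks and background, the input for IDR. A candidate alone is therefore not a call of binding. This list had a promoter candidate at 55 of the 73 mitochondrial ribosomal genes (75.3%), against 6969 of 13872 other genes (50.2%). Among genes with a candidate, 15 of 55 (27.3%) had an IDR peak, beside 22.8% of the other genes (1587 of 6969), so the ribosomal share was 1.20 times the background. When each replicate's 2334 strongest candidates were used, as many as the IDR list holds, the count was 11 of 55 in replicate 2 (background 22.0%) and 12 in replicate 3 (21.8%, background 23.0%). These shares use the pooled list's candidates. Over the replicates' own promoter candidates the ratio to other genes was 0.911 in replicate 2 and 1.00 in replicate 3. The members' share is read as near the background, with no steady direction. Genes are not replicates and the series holds 1 group, so no test was made.

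The level of signal was also close to that of other promoters. The authors' signal value at the strongest promoter candidate had a median of 46.0 over the 55 members (quartiles 31.8 and 73.2) and 41.6 over the 6969 other genes (28.6 and 68.8). The small subunit genes had a median of 51.0 over 18 candidates, with 33.3% in the IDR list, and the large subunit genes 44.0 over 37, with 24.3%. All 2334 regions of the IDR list outranked the rest of the pooled list in signal, with 72.5 as the lowest. Just inside this limit lay mRpL48 (75.3), mRpS11 (73.5) and mRpS16 (72.8). Just outside lay mRpL32 (66.0), mRpL18 (63.5) and mRpL17 (62.0). The 40 candidates that stayed outside ranged from 21.2 to 66.0.

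**Figure D1:**
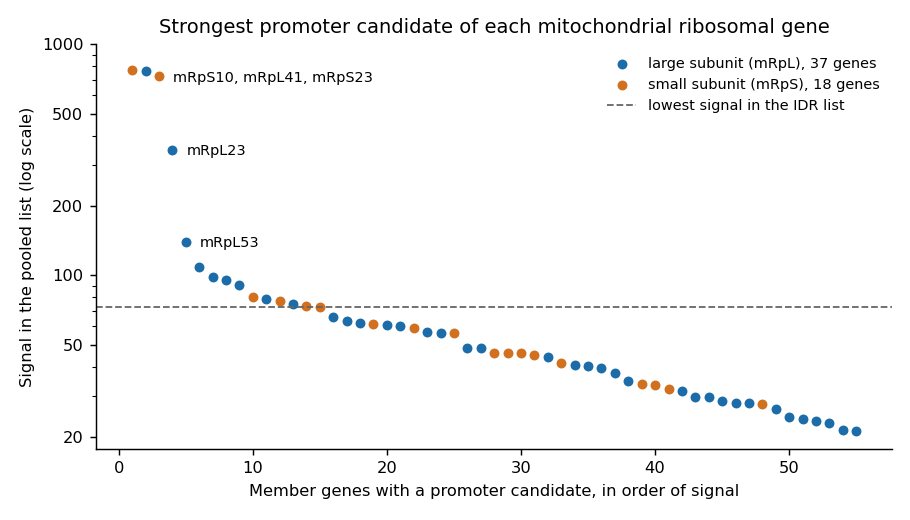
Signal of the strongest promoter candidate in the pooled list (y, log scale) for the 55 mitochondrial ribosomal genes that have one, in order of signal (x). Each point is a gene, coloured by subunit, and the dashed line is the lowest signal in the IDR list (72.5). Genes mRpS10, mRpL41 and mRpS23 stand at 725 and above, mRpL23 lies at 348, and the others fall from 139 to 21.2 without a step at the line.

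A few members carried very strong peaks. Among the 20 strongest pooled candidates in the genome were those of 3 of the 55 members (5.45%), against 12 of 6969 other genes (0.172%). These groups are not distinct regions, because a shared candidate counts for both genes. The 12 include Art3 and CenG1A, which share the candidates of the members mRpS10 and mRpS23. For 1 of the 3 members the summit lay nearest to the member's own start site. Among the strongest 100 were 4 members (7.27%, others 1.25%), and among the strongest 500 the same count of 4 (7.27%, others 5.83%). The distribution therefore had a short upper end of 4 genes, with the next member, mRpL53, at rank 668.

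The small subunit gene mRpS10 (chr3R:15229665-15230516, plus strand), whose protein has a counterpart in the bacterial small subunit, had the strongest peak. Its signal was 768 in the pooled list (rank 8), 376 in replicate 2 (rank 9) and 391 in replicate 3 (rank 11). Both replicates placed it near the top of their own lists. The summit lay 160 bp upstream of its start site and 97 bp from that of Art3, a protein arginine methyltransferase gene transcribed the other way, and its stretch is the first of the 3 printed.

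The large subunit gene mRpL41 (chr2R:15217024-15217617, minus strand), which in mammals encodes a subunit with no bacterial counterpart, had a signal of 765 (rank 9). It reached 347 in replicate 2 (rank 12) and 414 in replicate 3 (rank 7). The summit lay 145 bp upstream, and no other protein-coding start site lay within 500 bp of it. The small subunit gene mRpS23 (chr2L:13834250-13835072, minus strand) had 725 (rank 15), with 342 in replicate 2 (rank 13) and 375 in replicate 3 (rank 14). Its summit lay 380 bp upstream of its own start site and 112 bp from that of CenG1A, an Arf GTPase-activating protein gene. Of the 3 strongest members, mRpL41 was thus the one whose summit lay nearest to its own start site. The large subunit gene mRpL23 (chr3L:2372844-2373704, minus strand), whose bacterial counterpart sits at the exit of the peptide tunnel, had 348 (rank 83), with 180 in replicate 2 (rank 76) and 164 in replicate 3 (rank 99). Its summit lay 33 bp downstream of the start site, the single downstream case among the 15.

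The next members had signals a fraction of these. The large subunit gene mRpL53, which shares its start site with CG33155 on the same strand and faces AGO1, the Argonaute gene of the microRNA pathway, had 139 in the pooled list, 66.2 in replicate 2 and 61.7 in replicate 3. The gene mRpL24, opposite betaggt-I (a gene of protein prenylation), had 108, with 39.1 and 70.0 in replicates 2 and 3. The gene mRpL34, opposite Dg (dystroglycan, a receptor for the extracellular matrix), had 98.4, with 52.1 and 52.3. The replicates' deposited values were close for mRpL53 and mRpL34 and apart for mRpL24. The gene mRpL11, whose bacterial counterpart lies at the base of the ribosomal stalk, had 95.5, with 38.5 and 59.5, and faces HtrA2, a mitochondrial protease gene. The gene mRpL4 had 90.2, with 25.8 and 53.3. The gene mRpS7, whose bacterial counterpart is a small subunit protein, had 80.3, with 50.6 and 30.2. The first and second of these had the larger deposited value in replicate 3, and mRpS7 had it in replicate 2. To complete the 15, mRpL47 (79.1) and mRpS2 (77.1) are named after their values were seen.

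The 4 strongest members stood within the first 100 ranks of both replicates, with mRpS10 above mRpL41 in replicate 2 and below it in replicate 3, and 9 of the other 11 had 1 replicate on either side of rank 2334. The 15 members in the IDR list had a median signal of 95.5 there, against 109 for the 1587 other genes. Of these members, 6 (40.0%) were among the strongest 2334 of both replicates, against 1133 of 1587 other genes (71.4%), and none was in neither, against 32 other genes. Whether the lower signal bears on these shares was not tested. Another 5 members were among the strongest in replicate 2 alone and 6 in replicate 3 alone, which includes mRpL13 (rank 1502 in replicate 2) and mRpS22 (rank 2292 in replicate 3), both outside the IDR list. Both replicates had a promoter candidate at 42 members. Across these, Spearman's rho of the replicates' signals was 0.582, against 0.692 across 5113 other genes, as a description across genes whose lists share 1 control. The strongest candidate was taken in each list separately. A gene's paired values can therefore belong to different summits, as at mRpL16 and mRpS30, so rho is not likeness at the same site.

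Because depth is unknown, ratios of signal between the replicate lists are read only beside those of other genes. The log2 ratio of replicate 3 to replicate 2 signal was centred on a median of -0.04 (SD 0.61) over the 42 members, against -0.10 and 0.58 over the other genes. It was lowest at mRpL13 (-1.32, from 49.2 to 19.7), mRpL35 (-1.08, from 39.4 to 18.7) and mRpS16 (-0.98, from 43.4 to 22.1). It was highest at mRpS22 (1.27, from 14.9 to 36.0), mRpL4 (1.05, from 25.8 to 53.3) and, equal at 0.84, mRpL24 and mRpL17. Pairs were not matched for summit position. The values of mRpS22 belong to different summits, at -190 bp in replicate 2 and 22 bp in replicate 3. The spread over the members was therefore about that over other genes. Candidates found in replicate 2 alone made up 25.0% of the 56 members with one there (others 28.3%), and those in replicate 3 alone 12.5% of 48 (others 20.7%).

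**Figure D2:**
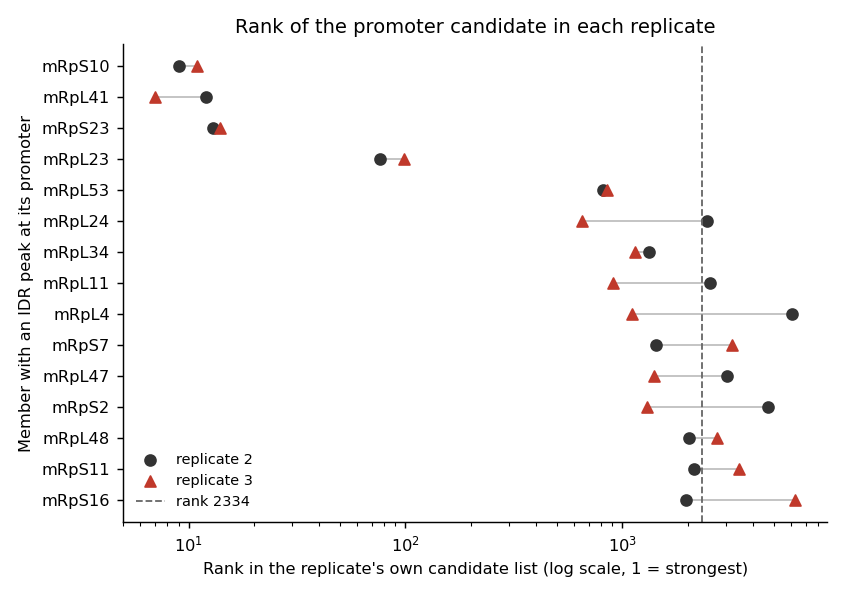
Rank of the promoter candidate in the list of replicate 2 (circles) and of replicate 3 (triangles) on a log scale, for the 15 members with an IDR peak, strongest pooled signal at the top. Lines join the replicates and the dashed line marks rank 2334. The 5 strongest members and mRpL34 lie left of the line in both replicates, and each of the other 9 has 1 replicate on either side.

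Divergent promoters were more frequent among the members than among other genes, whatever their binding. A protein-coding gene on the opposite strand started within 1000 bp upstream of 58 of the 73 members (79.5%), against 36.0% of other genes, with a median gap of 283 bp (20 to 793) against 298 bp. Members are also short, with a median gene length of 0.909 kb against 2.18 kb. A summit between divergent start sites counts for both genes, so layout bears on every count above.

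All 15 members with an IDR peak had a divergent promoter. Among divergent promoters with a candidate, 15 of 49 members (30.6%) had a peak, beside 29.7% of the others (1012 of 3405). Without a divergent start site, 0 of 6 members had a peak, beside 16.1% of the others (575 of 3564). Among the strongest 2334 of each replicate, divergent members had 20.4% in replicate 2 (others 27.5%) and 24.5% in replicate 3 (others 30.2%). Within divergent promoters the members' share was thus about the background's in the IDR list and below it in each replicate, and 6 genes are too few to place the other layout. A candidate of any strength was found at 84.5% of divergent members and 68.2% of divergent others, and at 40.0% and 40.1% without a divergent start site. Among members with gaps under 200 bp, 7 of 16 candidates were in the IDR list (43.8%, others 29.6%). The share was 4 of 17 (23.5%, others 35.5%) for gaps from 200 to under 400 bp, and 4 of 16 (25.0%, others 22.7%) for 400 to 1000 bp. No steady order with the gap appeared in either group.

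**Figure D3:**
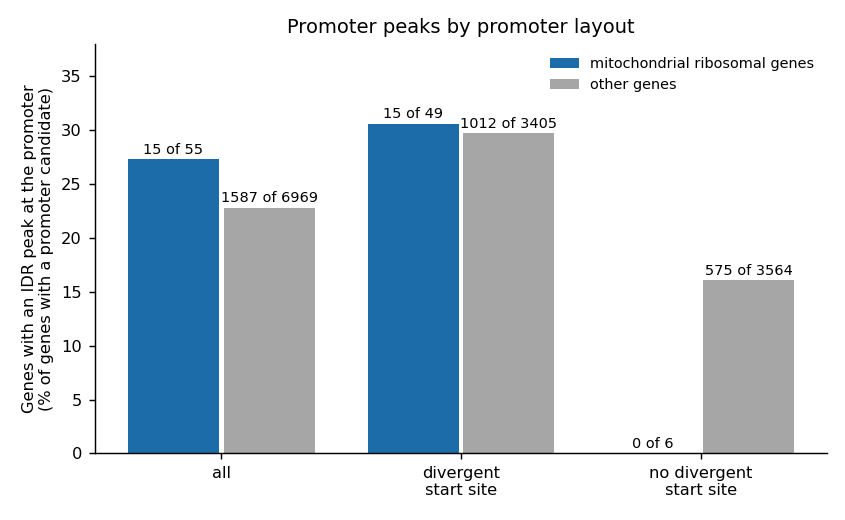
Share of genes with an IDR peak at the promoter (y, % of genes with a promoter candidate) for mitochondrial ribosomal genes and other genes, over all promoters, divergent promoters and promoters without a divergent start site (x). Numbers above the bars are genes with a peak of genes with a candidate. The bars are 30.6% and 29.7% at divergent promoters, and no member without a divergent start site had a peak.

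Which gene of a pair the summit favoured was read from distances. Of the 15 members with a peak, 13 shared the summit with another gene's start site within 500 bp (others 56.3%). At 6 (40.0%, others 73.2%) the member was the gene nearest to the summit. A tie counted for each gene in it, as for mRpL53 and CG33155, both 64 bp from the summit. Over all 55 candidates, 29 members were nearest (52.7%), against 81.1% of others. These comparisons are not matched for layout. All 15 members with a peak had a divergent start site, against 1012 of 1587 others. Among genes with a candidate it was 49 of 55 members and 3405 of 6969 others. The gaps are thus not read as a trait of the members. The summit was nearer to the partner at 9 of the 15. It lay 2 bp from the start of cg (combgap, a zinc-finger gene) and 99 bp from that of mRpS16. It lay 3 bp from the start of Mon1, a gene of late endosome maturation, and 225 bp from that of mRpS2. At mRpL47 it lay 12 bp from the start shared by CG8176 and Kdm3 (a histone demethylase gene) and 87 bp from its own. At mRpS7 the order was the other way, 185 bp from its own start and 215 bp from that of Cdk1. Binding to a shared promoter cannot be assigned to 1 gene of the pair by position.

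Summits lay upstream of the members' start sites. The strongest candidate lay a median of 99 bp upstream (median position -99, quartiles -217 and -20.5), with 44 of 55 upstream (80.0%), against a median of -67 and 66.6% for other genes. For members with an IDR peak the median was -145 (quartiles -180 and -75.5), with 14 of 15 upstream (93.3%), against -120 and 84.8%. Neither comparison is matched for layout, and divergent start sites were more frequent among the members. In divergent promoters with an IDR peak, the summit lay between both start sites at 13 of 15 members (86.7%) and 83.7% of others.

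**Figure D4:**
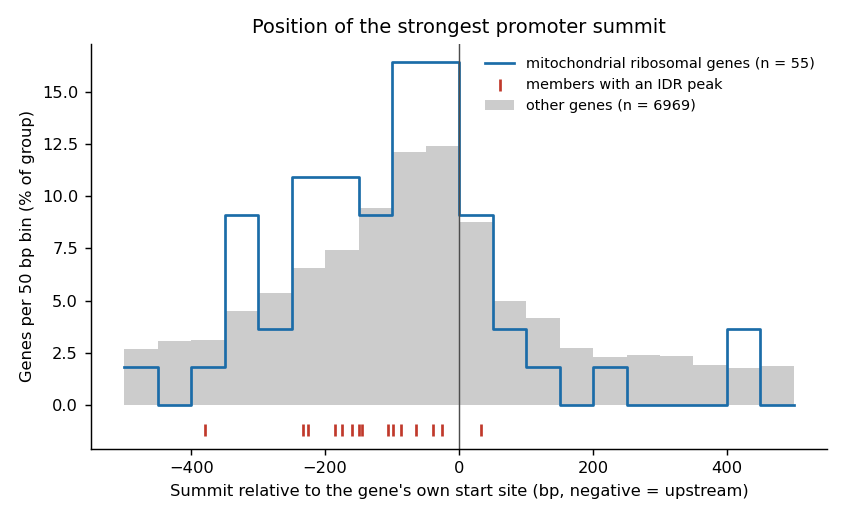
Position of the strongest promoter summit relative to the gene's own start site (x, bp, negative upstream) as the share of genes per 50 bp bin (y). Grey bars are the 6969 other genes with a candidate, the line the 55 members, and red ticks the 15 members with an IDR peak. Both groups peak just upstream of the start site, and 14 of the 15 ticks lie upstream.

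By chromosome arm, members with an IDR peak of those with a candidate were 6 of 11 on 2L, 4 of 10 on 2R, 1 of 13 on 3L, 4 of 15 on 3R and 0 of 6 on X, and chromosome 4 holds no member. Other genes had 25.6%, 23.2%, 21.7%, 23.3% and 20.2% on the same arms. The members' counts per arm are small, and their order was not tested.

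With the wider assignment, gene body plus 2 kb on either side, 25 of 71 members with a candidate there had an IDR peak (35.2%), beside 27.4% of other genes (3071 of 11225). This added 10 genes, all of the large subunit, with the peak 1120 to 3259 bp from their own start site. For 8 of them it lay downstream of that site, and for 9 a start site of another gene lay within 110 bp of the summit. The peak near mRpL28 (signal 185) lay 77 bp from the start of CG3792. That near mRpL13 (152) lay 96 bp from CG10602. Those near mRpL27 (129) and mRpL50 (118) lay 13 bp and 10 bp from the starts of RpL27A and RpL18, genes of the cytoplasmic ribosome. The others were mRpL18 (104, at Dgkepsilon), mRpL19 (109, at Unc50), mRpL20 (85.3, at CG11267), mRpL46 (109, at PolD2), mRpL51 (87.0, at CG13097) and mRpL55 (74.7, with the nearest start, of CG6040, 562 bp away). The wider count thus took in promoters of neighbours. Within gene bodies alone 1 member, mRpL23, had an IDR peak.

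No promoter candidate stood in the pooled list at 18 members. By symbol, the first 10 were mRpL14, mRpL15, mRpL19, mRpL2, mRpL28, mRpL30, mRpL33, mRpL40, mRpL45 and mRpL49, and the other 8 were small subunit genes. For 7 of the 18 at least 1 replicate list held a candidate, and for mRpS18C both did (14.1 in replicate 2, 15.0 in replicate 3). Examples in 1 list, all weak, are mRpL45 (12.7 in replicate 2), mRpL28 (15.1 in replicate 3) and mRpL33 (15.0 in replicate 3). The other 11 had none in any of these lists, which at an unknown depth does not show that they were unbound. Both replicate lists hold 30000 candidates, and whether they were cut at that number is not known here.

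The E-box word CAGCTG stood in the 300 bp promoter windows (250 bp before to 50 bp after the start site) of 40 of 73 members (54.8%), against 17.5% of other genes and 17.7% of all protein-coding genes. It was found at 27 of 47 large (57.4%) and 13 of 26 small subunit genes, at 53.4% of divergent members (others 21.6%) and at 60.0% of members without a divergent start site (others 15.2%). Genes of the cytoplasmic ribosome had it in 9.78% and those of respiratory complex I in 32.5%. Where a promoter held more copies, only the one nearest to the start site was measured. In members with the word its first base lay a median of 4 bp from the start site. It lay within 50 bp in 35 of 40 (87.5%), against 52.2% of other genes with the word. This is a description of sequence and does not name a factor.

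**Figure D5:**
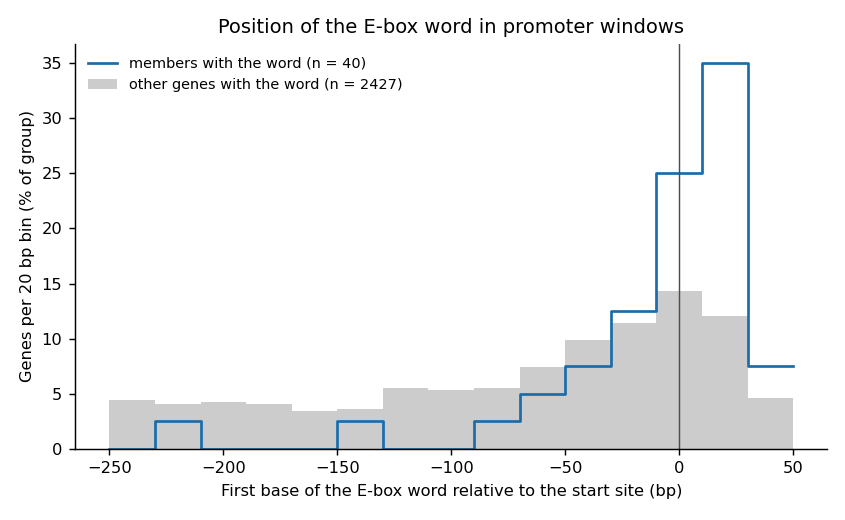
First base of the E-box word relative to the start site (x, bp), for the copy nearest to it in each gene, as the share of genes with the word per 20 bp bin (y). Grey bars are the 2427 other genes with the word and the line the 40 members, of which 35.0% fall in the bin from 10 to 30 bp downstream and 25.0% in the bin from -10 to 10 bp, against 12.1% and 14.3% of other genes.

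In the promoter windows the word was about as frequent at members with a peak as at those without. It was present in 53.3% of promoters of members with an IDR peak and 55.2% of the other members, and in 49.1% of members with a candidate and 72.2% of the 18 without one. Among members with a candidate, 8 of 27 with the word were in the IDR list (29.6%) and 7 of 28 without it (25.0%), and among other genes 26.6% and 21.8%. Within 100 bp of the summit it stood at 6 of 15 members with a peak (40.0%) and 9 of 40 other member candidates (22.5%), against 12.5% of 1119 other promoter peaks and 12.6% of 4486 other promoter candidates.

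The other 9 words were counted in the same windows. The word TATCGATA, bound by DREF and BEAF-32, stood in 20.5% of member promoters and 9.31% of others (20.7% and 15.7% at divergent promoters, 3 of 15 and 5.69% at the rest). It stood at none of the 15 member peak summits and at 7.69% of other promoter peak summits. At candidates outside the IDR list it stood at 12.5% of member summits and 6.20% of others. The GAGA factor word GAGAG was in 16.4% of member promoters and 29.8% of all promoters, and at 13.3% of member peak summits against 23.3% of others. The M1BP core GGTCACAC was at 13.3% of member peak summits (2 of 15) and 4.11% of others. The second E-box, CACGTG, was likewise at 13.3% against 2.77%. The remaining words were TATAAA (3 of 15 against 30.7%), AGNNGGCGC of CTCF (0% against 3.13%), GCGCATGC of NRF-1 and ewg (0% against 0.357%), GTATNTTT of element 6 (13.3% against 10.5%) and TGAGTG of zeste (6.67% against 9.29%). With 15 summits, 1 gene is a step of 6.67%. The median GC content at member peak summits was 36.3%, against 37.3% at other promoter peaks. At member candidates outside the IDR list it was 36.3%, against 42.8% for other genes.

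Related nuclear genes were read side by side, with no test. Of all genes other than the members, 22.8% of those with a candidate had a promoter peak (1587 of 6969). Sets of 5, 11 and 9 genes with a candidate are too few to place against that share. Of the mitochondrial ribosomal genes named without the prefix, tko, a small subunit gene, had a promoter peak (signal 102, with 48.0 in replicate 2 and 51.7 in replicate 3), and bonsai had no promoter candidate. None of 5 mitochondrial translation factor genes with a candidate had a peak. Of 11 genes of mitochondrial DNA and RNA machinery with a candidate 2 had one, PNPase (728, rank 14), which encodes a mitochondrial polynucleotide phosphorylase, and mtSSB (124), which encodes the single-strand DNA-binding protein. Of 9 import genes 2 had one, the outer membrane translocase gene Tom7 (146) and the intermembrane space chaperone gene Tim10 (91.8). Complex I genes had 6 of 22 (27.3%, median signal 37.8). Cytoplasmic ribosomal genes had 61 of 86 (70.9%, median signal 110), with a divergent start site at 59.8% of them. Across these sets the mitochondrial ribosomal share, 27.3%, equalled that of complex I and lay below that of the cytoplasmic ribosome.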

How the data were processed

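ChIP-seq candidate lists of 2 replicates in dm6 coordinates were used. Per the file headers and notes, the authors deposited a list for each replicate, a list from both replicates' alignments, all with 1 control file, and an IDR list made from these. Column 7 holds a signal value, whose scale the authors do not state, and column 10 of the deposited files the offset in bp at which the summit lies. Not given in the sources used here: aligner, peak caller, IDR threshold, read number. Depth is thus unknown. Signal was compared between genes within a list, and between replicates only as a ratio described beside that of other genes. The dm3 lists were not used here.

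Genes and start sites came from the Ensembl release 115 annotation (BDGP6), sequence from RefSeq Release 6; all 6 chromosome lengths exceeded the last gene and candidate ends. For each gene the strongest summit within 500 bp of its start sites was taken, in each list separately. The work was done in Python 3.11.15 with pandas 2.3.3 and numpy 2.4.6. Assignment was checked on simulated summits. Counts were set beside other genes, with no test, since there is 1 group. The members, lists and comparisons were chosen with earlier results of these data known. Named were the 10 strongest members, those next to the IDR limit, those without a candidate (10), those with a peak only in the wider window, the extremes of the replicate ratio, members strong in 1 replicate only, partners sharing a summit with the strongest members, and up to 4 genes per list. Of 9 translation factors 8 matched by symbol or synonym, and of 15 import genes 12. Alternatives were other distances, other assignments and single replicates.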

Additional observations from a re-analysis of the deposited data

How the results depend on the processing

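Members with an IDR peak at the promoter numbered 15. They numbered 6 when peaks above the median signal of the IDR list were required. The count was also 6 when each summit was given to the gene with the nearest start site, ties counting for each gene. Other genes fell from 1587 to 873 and 1022 when peaks above the median, or peaks whose interval covers the start site, were required. The ratio of shares, 1.20, was 1.29 at 200 bp, 1.10 at 1000 bp, 0.871 for peaks above the median, 1.30 from the gene's 5′ end alone, 0.949 for the nearest start site, 1.38 when the interval had to cover the start site, 1.80 over all protein-coding genes, 1.03 at divergent promoters and 0 at the others. With either replicate alone the counts were 11 to 12 members and 1538 to 1610 other genes, and the ratio 0.911 to 1.00. It lay below 1 under some settings, so no direction is claimed. In the gene body alone 1 member had a peak, against 25 with 2 kb added (20 to 23 in single replicates). The ratio of median signals, 1.11, was 1.06 at 200 bp, 1.13 at 1000 bp and 1.03 to 1.06 in single replicates. The median summit position of -99 bp was -145 over IDR peaks only and -110 to -90 in single replicates. Of 120 recomputed member calls 87 were kept, and mRpL23, mRpL41 and mRpL53 were called in every one. An alternative chosen after seeing the data kept 1 of the 3 members among the 20 strongest when the summit had to be nearest to the member. No paired analysis was possible because the labels give a single group. The unknown depth and a possible cut of the replicate lists limit what a missing candidate shows. All counts describe these 2 replicates only.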
